A study of Homo sapiens with 6 samples.

Results

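The genes described here are HMOX1 and 8 other targets of the transcription factor NRF2: BLVRB, NQO1, GCLC, GCLM, SLC7A11, SRXN1, ME1 and OSGIN1. They were chosen by name with the input and footprint levels of these same libraries already known, so their values are a description and carry no test. All 9 were found among 60420 gene identifiers, and 7 had a mean of at least 5 TPM (a share of all transcripts, scaled by gene length, that has the same total in each library) over the libraries. SLC7A11 and OSGIN1 lay below that level, and the counts of members given here leave them out. The cells were HEK293T, an established line derived from human embryonic kidney that expresses the large T antigen of SV40. They had been given the vehicle DMSO, an inhibitor labelled PRMT1 inhibitor or one labelled PRMT4 inhibitor, with no compound, dose or time named. PRMT1 and PRMT4, the latter also called CARM1, are enzymes that methylate arginine in proteins. For each of the 3 treatments there was 1 input library, read here as RNA level. There was also 1 footprint library, made from the fragments that ribosomes protect when a lysate is digested with RNase I. The 6 libraries are therefore single samples of 1 cell line, no difference below has a replicate check, and no p-value is given.

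NRF2, encoded by NFE2L2, is held at a low level by KEAP1, which presents it to a CUL3 ubiquitin ligase. Electrophiles and oxidants modify KEAP1, NRF2 then accumulates and, paired with a small MAF protein, binds antioxidant response elements in its target genes. BACH1 competes for such elements and represses HMOX1 in particular until heme releases it. HMOX1 also responds to heme, heavy metals and other stresses.

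Of 9 markers listed for the line, 6 were at 1 TPM or more in every input, VIM among them at 104 to 121 TPM. Of 9 markers of blood, liver, fibroblast and endothelial cells with an identifier, 1 reached that level, COL1A1 at 1.97 to 3.26 TPM. The share of TPM in protein-coding genes ran from 33.4% to 45.7% over the inputs and from 62.3% to 74.3% over the footprints, highest with DMSO in both.

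The inhibitor labels of the input and footprint libraries did not go together. Over 8117 protein-coding genes, the log2 difference between the PRMT1 and PRMT4 labels in input ran against the same difference in footprints, with Pearson's r -0.42 and Spearman's rho -0.41 across genes, which are not independent replicates. The 2 differences share no library. Their signs were opposite in 64.1% of these genes, and in 5 of the 7 members, of which BLVRB and ME1 each have 1 difference whose sign turns with the scale. Without the members r was -0.41. Libraries are therefore called by their labels, quotients of footprints over input are given with the input of either label, and means over both labels, which do not depend on the labels, are given beside the single values.

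**Figure D1:**
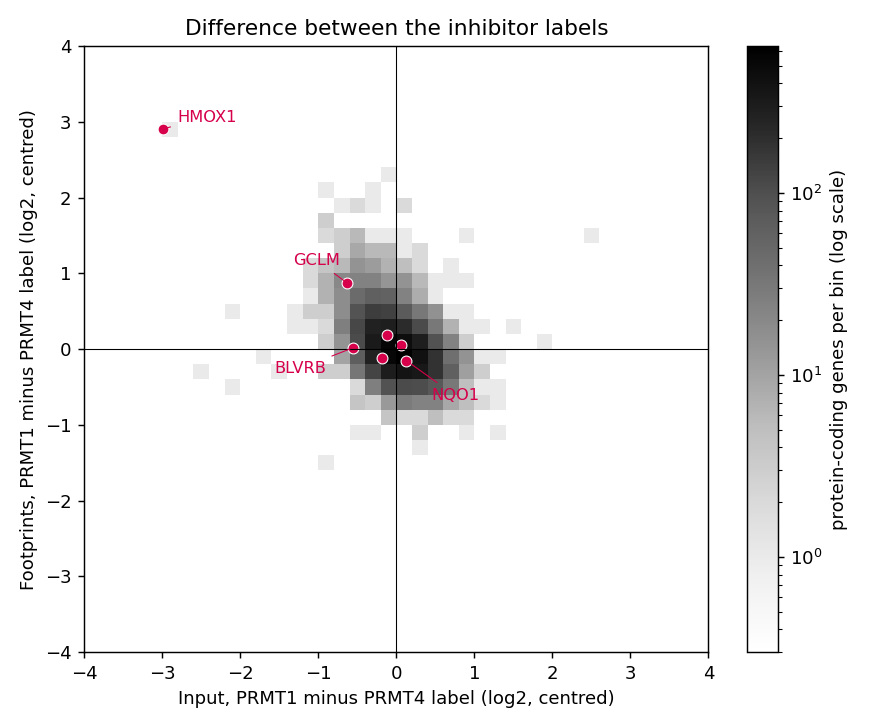
Each shaded bin counts protein-coding genes by their log2 difference between the PRMT1 and PRMT4 inhibitor labels in input (horizontal axis) and in footprints (vertical axis), both centred on the median tested gene, and red points are the 7 members with a mean of at least 5 TPM. HMOX1 lies alone at -2.99 in input and 2.91 in footprints, and GCLM lies on the same side at -0.63 and 0.88.

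HMOX1 (ENSG00000100292.16_2) encodes the stress-inducible heme oxygenase, which opens the heme ring to give biliverdin, iron and carbon monoxide. Its input level was 7.53 TPM in DMSO, 21.6 TPM under the PRMT1 inhibitor label and 156.5 TPM under the PRMT4 inhibitor label. Its footprint level was 33.0 TPM in DMSO, 642 TPM under the PRMT1 inhibitor label and 93.9 TPM under the PRMT4 inhibitor label. All 4 inhibitor libraries stood above DMSO, and in each kind of library 1 label was far above the other, but not the same label. Ranked by TPM among protein-coding genes, HMOX1 was number 7298 with DMSO, 3012 under the PRMT1 label and 242 under the PRMT4 label in input. In footprints its ranks were 2644, 159 and 1077.

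The uncorrected quotients to DMSO were 2.87 and 20.8 in input, for the PRMT1 and PRMT4 labels in that order, and 19.4 and 2.84 in footprints. The larger quotient was thus close in size in both kinds of library, and so was the smaller, but each under opposite labels. The reason was not tested, and 1 library per group cannot give it. On the scale used for all genes, log2((TPM + 1) / (TPM + 1)) less the median over the 9040 tested genes, HMOX1 stood at 1.57 and 4.57 in input and at 4.39 and 1.49 in footprints. No other protein-coding gene had a higher ratio in the input of either label or in the footprints labelled PRMT1 inhibitor, where the next gene lay at 0.99, 2.60 and 2.69. In the footprints labelled PRMT4 inhibitor it was number 2. Among all 9040 tested genes, of every type, HMOX1 was number 15 and 3 in input and number 8 and 24 in footprints. The means over both labels were 3.07 in input and 2.93 in footprints.

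**Figure D2:**
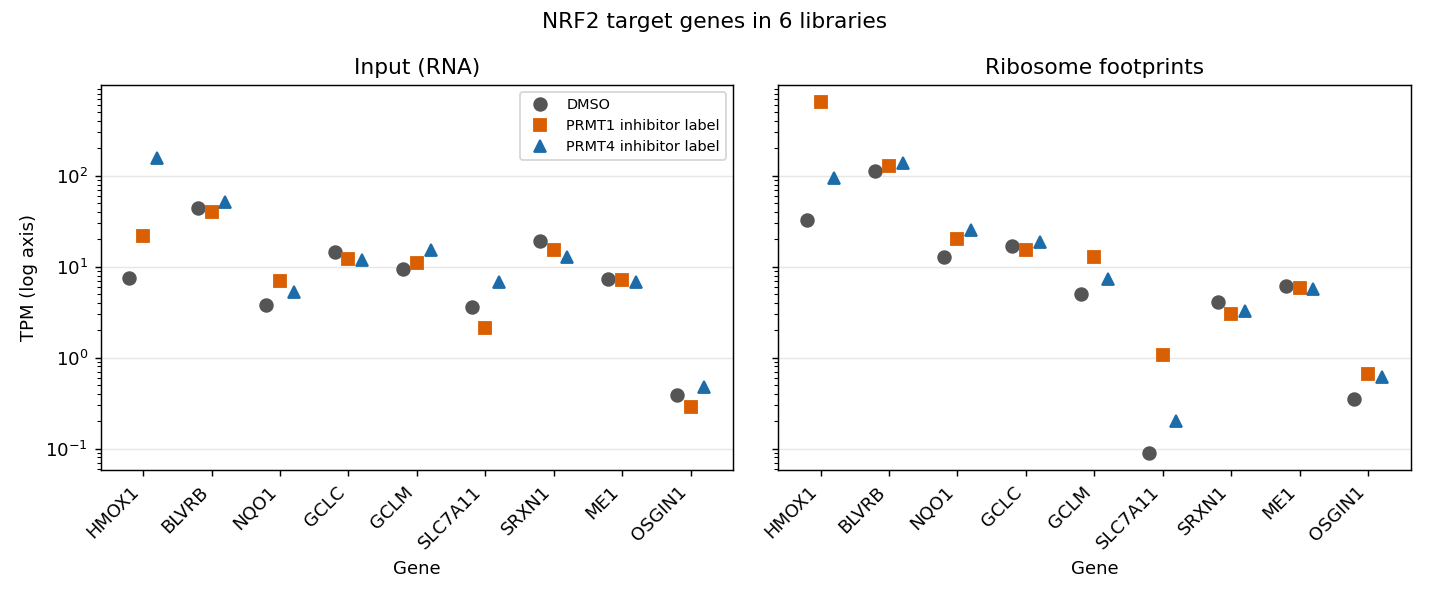
Points give the TPM (log axis) of each of the 9 genes in the 3 input libraries (left) and the 3 footprint libraries (right), 1 library per point. HMOX1 spans 7.53 to 156.5 TPM in input and 33.0 to 642 TPM in footprints, while GCLC and ME1 lie nearly level in both panels.

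BLVRB (ENSG00000090013.9_2) encodes biliverdin reductase B, a flavin reductase that can also reduce biliverdin isomers, and was the most abundant member in both DMSO libraries. Its input levels were 44.3 TPM with DMSO, 40.2 TPM under the PRMT1 label and 51.95 TPM under the PRMT4 label. Its footprint levels, listed in the same order as all levels below, were 113, 127 and 139 TPM. Its centred ratios were 0.02 and 0.59 in input and 0.32 and 0.31 in footprints. After centring, the footprint values of both inhibitor labels were above DMSO by a similar amount, where the uncorrected quotients were 1.13 and 1.23. In input the PRMT4 label lay higher and the PRMT1 label close to DMSO. Without centring the value for the input labelled PRMT1 inhibitor lay at -0.14. BLVRA, which encodes the main biliverdin reductase and was singled out after its values were seen, had ratios of -0.24 and -0.13 in input and -0.15 and -0.23 in footprints.

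NQO1 (ENSG00000181019.12_2) encodes a quinone reductase that transfers 2 electrons at once and is the usual readout of NRF2 activity. It had an input level of 3.75 TPM with DMSO, 6.90 TPM under the PRMT1 label and 5.34 TPM under the PRMT4 label. In footprints it stood at 12.9, 20.3 and 25.2 TPM. All 4 inhibitor libraries were again above DMSO, here by amounts close to each other: the centred ratios were 0.89 and 0.78 in input and 0.76 and 0.92 in footprints. NQO1 thus lacked the gap between labels seen for HMOX1, with differences between the labels of 0.13 in input and -0.15 in footprints. It lay under 2-fold in all 4 comparisons, and above 0 in all 4 under each of the 7 scales and filters run.

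GCLC (ENSG00000001084.10_3) and GCLM (ENSG00000023909.9_2) encode the catalytic and the modifier subunit of glutamate-cysteine ligase, the rate-limiting enzyme of glutathione synthesis. GCLM had an input level of 9.35 TPM with DMSO, 10.9 TPM under the PRMT1 label and 15.2 TPM under the PRMT4 label, and at 5.02, 12.7 and 7.28 TPM in the footprints. It followed the pattern of HMOX1 at a smaller size, with centred ratios of 0.36 and 1.01 in input and 1.33 and 0.47 in footprints. GCLC, in contrast, had input levels of 14.45, 12.05 and 11.99 TPM and footprint levels of 17.0, 15.3 and 18.5 TPM. Its centred ratios lay between -0.08 and 0.12, and those for the PRMT4 label in input and the PRMT1 label in footprints change sign with the scale. The 2 subunits of the enzyme therefore had different profiles: the mean over both labels was 0.68 in input and 0.90 in footprints for GCLM, and 0.01 and 0.06 for GCLC.

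Sequences upstream of the start site were matched for 7 of the 9 members, all but HMOX1 and SLC7A11, in RefSeq (GRCh38.p14). A search of the 250 bases before each start, on both strands, for the core of the antioxidant response element, TGACNNNGC, found it in 2 of these 7, GCLM and ME1, and in 10.9% of 35116 windows of this length. The longer form TGACTCAGC, which is one case of the core, was present in ME1 and in 0.456% of the windows. These 2 windows are shown because they hold the element, one in a member that stood higher with HMOX1 and one in a member that did not. Capitals mark the match, which in GCLM reads on the opposite strand and lies 34 to 26 bases before the start, and in ME1 lies 137 to 129 bases before it.
GCLM, chr1:93909431-93909680, minus strand: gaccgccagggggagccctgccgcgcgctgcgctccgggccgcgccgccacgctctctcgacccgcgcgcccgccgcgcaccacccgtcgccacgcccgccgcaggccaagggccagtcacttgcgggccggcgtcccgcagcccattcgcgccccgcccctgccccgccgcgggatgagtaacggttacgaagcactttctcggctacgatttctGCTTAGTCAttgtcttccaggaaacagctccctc
ME1, chr6:83431052-83431301, minus strand: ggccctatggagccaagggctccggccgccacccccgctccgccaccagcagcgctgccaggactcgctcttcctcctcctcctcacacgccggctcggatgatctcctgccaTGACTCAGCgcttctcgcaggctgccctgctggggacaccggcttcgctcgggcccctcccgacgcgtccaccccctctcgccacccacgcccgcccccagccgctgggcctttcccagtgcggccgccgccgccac
A match is a description of these letters, and no binding was measured. Bases farther than 250 from the start were not searched, so a window without a match does not mean a gene without the element.

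SLC7A11 (ENSG00000151012.13_2) encodes the cystine transporter xCT, which supplies cysteine for glutathione. It had an input level of 3.59 TPM with DMSO, 2.14 TPM under the PRMT1 label and 6.77 TPM under the PRMT4 label, and at 0.09, 1.07 and 0.20 TPM in the footprints. The highest value again came from the PRMT4 label in input and from the PRMT1 label in footprints, the arrangement seen for HMOX1 and GCLM. Its ratio of 1.07 for the footprints labelled PRMT1 inhibitor went from 0.36 with a pseudocount of 5 TPM to 2.78 with one of 0.1 TPM, so at these levels its size is set by the pseudocount. SLC3A2, which encodes the heavy chain that pairs with xCT, had input levels of 52.1, 56.0 and 78.8 TPM and footprint levels of 57.9, 96.5 and 60.7 TPM, with the same arrangement. Differences between the labels had opposite signs in input and footprints in 64.1% of the 8117 protein-coding genes, so opposite signs are not particular to these genes. That share counts either direction, and the share in the direction seen here is not given.

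SRXN1 (ENSG00000271303.1_3) encodes sulfiredoxin, which repairs over-oxidised peroxiredoxins. Its input levels were 19.4, 15.3 and 12.8 TPM, and its footprint levels 4.06, 3.01 and 3.29 TPM. It was the only one of the 7 tested members below DMSO in all 4 inhibitor libraries after centring, with ratios of -0.17 and -0.20 in input and -0.19 and -0.23 in footprints, and it stayed below 0 in all 4 under each of the 7 scales and filters. ME1 (ENSG00000065833.8_2), the cytosolic malic enzyme that yields NADPH, had input levels of 7.33, 7.13 and 6.78 TPM and footprint levels of 6.09, 5.89 and 5.73 TPM. Its centred ratios ran from -0.07 to 0.27, of which only that of the footprints labelled PRMT4 inhibitor kept its sign under all scales. OSGIN1 (ENSG00000140961.12_3), an oxidative stress-induced growth inhibitor, ranged from 0.29 to 0.47 TPM over the inputs and from 0.35 to 0.66 TPM over the footprints, too low for a ratio to be read.

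**Figure D3:**
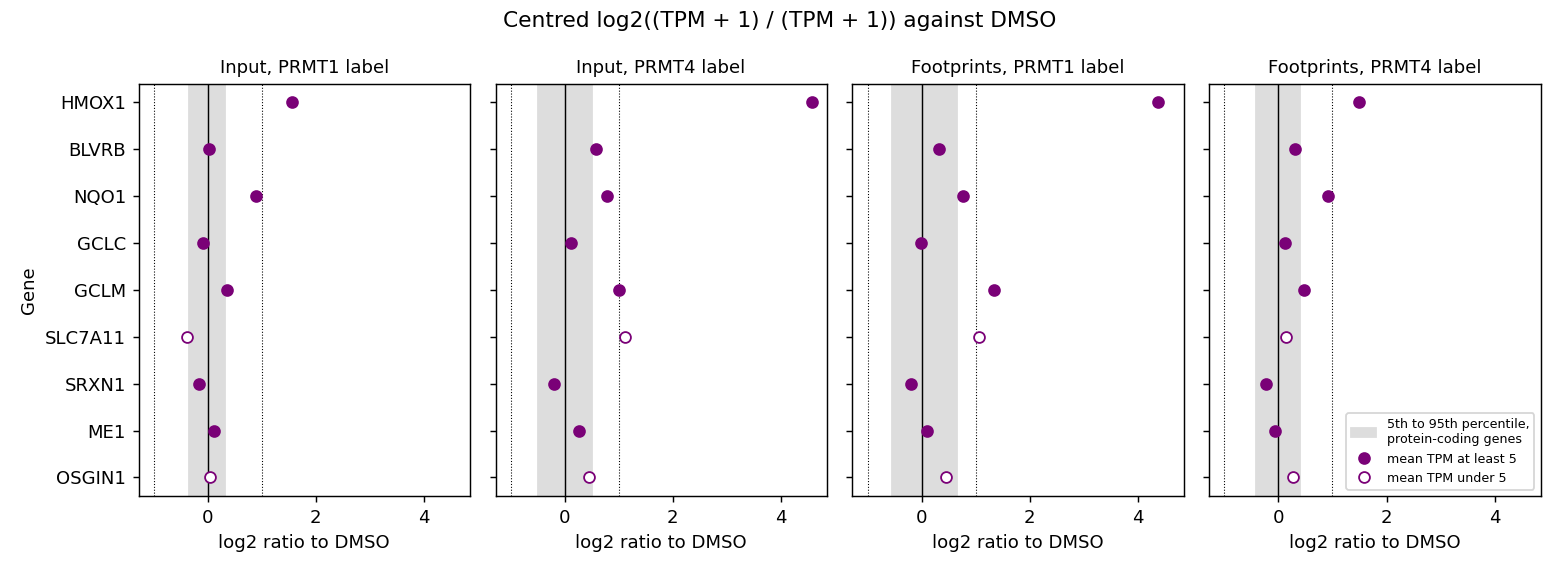
Each panel gives the centred log2 ratio to DMSO (horizontal axis) of the 9 genes in 1 inhibitor library, with the range from the 5th to the 95th percentile of protein-coding genes in grey, 2-fold as dotted lines and genes under a mean of 5 TPM as open points. HMOX1 lies past 2-fold in all 4 panels, NQO1 lies right of the grey range in all 4, and SRXN1 lies left of 0 in all 4.

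By count, 1 of the 7 tested members was at least 2-fold higher in the input labelled PRMT1 inhibitor, HMOX1, where 0.619% of all tested genes were. In the input labelled PRMT4 inhibitor there were 2, HMOX1 and GCLM, against 1.98% of tested genes. In the footprints labelled PRMT1 inhibitor there were again HMOX1 and GCLM, against 3.25%, and in those labelled PRMT4 inhibitor HMOX1 alone, against 0.642%. No member was at least 2-fold lower in any of these, where 0.199%, 0.465%, 0.575% and 0.254% of tested genes were. The members' medians were 0.12, 0.59, 0.32 and 0.31, beside 0 for all tested genes by construction. Between the labels, HMOX1 alone was at least 2-fold lower in the PRMT1-labelled input (1.03% of tested genes) and at least 2-fold higher in the PRMT1-labelled footprints (3.12%, with 0.442% lower). In the mean of both labels it was again 1 of 7 in input (0.796%) and 1 of 7 in footprints (1.74%). With these data behind the choice of members, nothing is read from these counts. GCLM at 1.01 in the input labelled PRMT4 inhibitor was just past the line, and lay at 0.64 without centring. The inputs and the footprints of both labels are each set against 1 DMSO library, which they share.

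Translation efficiency, the footprint level over the input level, depended on which input was used. For HMOX1 the quotient was 4.39 in DMSO. With the input of the same label it was 29.7 for the PRMT1 label and 0.600 for the PRMT4 label. With the input of the other label it was 4.10 and 4.34, close to the DMSO value.

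Relative to DMSO and to the median gene, these are log2 ratios of 2.82 and -3.10 with the same label, where HMOX1 had the highest value of all tested protein-coding genes for the PRMT1 label and the lowest for the PRMT4 label. Among tested genes of every type it was number 37 from the top and number 8 from the bottom. With the other label the ratios are -0.20 and -0.09, inside the range from -0.51 to 0.53 and from -0.39 to 0.37 that holds the middle of protein-coding genes, from the 5th to the 95th percentile. The mean over both labels, which is the same under either pairing, was -0.15. By label, 1 of 7 members was at least 2-fold higher for the PRMT1 label, where 3.19% of tested genes were, and 1 at least 2-fold lower for the PRMT4 label, where 2.13% were. With the input of the other label no member was past 2-fold in either direction. There 2.01% of genes were higher and 1.23% lower for footprints labelled PRMT1 inhibitor, and 0.631% higher and 0.885% lower for those labelled PRMT4 inhibitor.

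GCLM went the same way as HMOX1 with the same label, but stayed above its DMSO quotient with the other. Its quotient was 0.537 in DMSO, 1.17 and 0.480 with the same label, and 0.838 and 0.669 with the other. Over the 7 tested members the log2 ratios ran from -0.13 to 2.82 and from -3.10 to 0.13 with the same label, and from -0.29 to 0.31 and from -0.20 to 0.28 with the other. Over all 8117 protein-coding genes the SD of the ratio was 0.35 and 0.36 with the same label and 0.33 and 0.24 with the other. NQO1, with no gap between the labels, had quotients of 3.43 in DMSO, 2.94 and 4.72 with the same label, and 3.80 and 3.65 with the other.

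**Figure D4:**
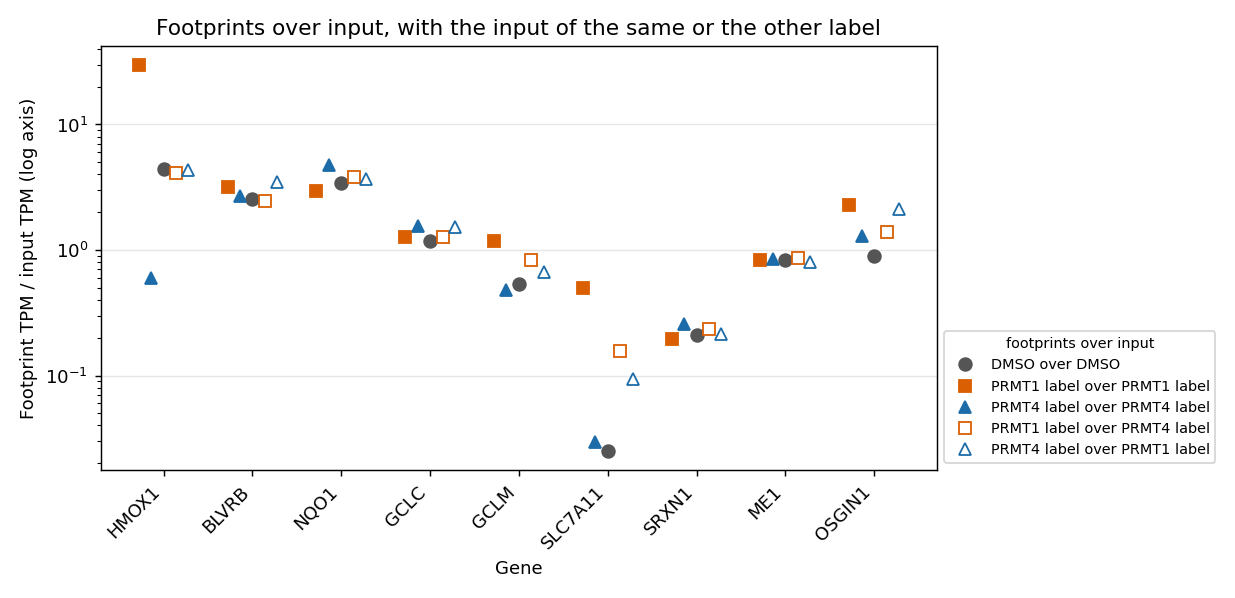
Points give the quotient of footprint TPM over input TPM (log axis) for each gene in DMSO (grey), with the input of the same inhibitor label (filled) and with the input of the other (open). For HMOX1 the filled points lie at 29.7 and 0.600 and the open ones at 4.10 and 4.34, beside 4.39 in DMSO.

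In DMSO alone the 7 tested members spread widely in this quotient. From high to low it was 4.39 for HMOX1, 3.43 for NQO1, 2.54 for BLVRB, 1.177 for GCLC, 0.831 for ME1, 0.537 for GCLM and 0.209 for SRXN1. OSGIN1 and SLC7A11 are left out of this order for their low levels, and the log2 value of SLC7A11 relative to the median gene ran from -4.37 to -0.82 over the 7 scales and filters. Single libraries give no spread, so neighbours in this order cannot be told apart. Of these, 3 were at least 2-fold above the median gene, where 16.4% of tested genes were, and 1, SRXN1, at least 2-fold below, where 19% were. In the GENCODE 29 transcript with the longest coding sequence of each gene, the coding part made up 15.2% of the length in SRXN1 and 16.9% in GCLM, the lowest in this order. It made up 28.2% in NQO1, 47.4% in HMOX1, 50.9% in ME1, 78.4% in BLVRB and 83.7% in GCLC. The GCLC transcript used has 0 annotated bases before its coding sequence, which raises its share. TPM spreads footprints over the whole transcript, and its part in this order was not tested.

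The genes most like HMOX1 were sought among 148 protein-coding genes with at least 1 of the 4 ratios at or past 2-fold, by the cosine between the 4 centred ratios of each gene and those of HMOX1. The 7 highest were P4HB, SLC12A4, LRPAP1, AMOTL2, SPNS1, GCLM and CTSD, with cosines of 0.998 down to 0.986. The cosine compares shape and not size. P4HB, the protein disulfide isomerase of the endoplasmic reticulum, had ratios of 0.30 and 1.06 in input and 0.90 and 0.34 in footprints. CTSD, the lysosomal protease cathepsin D, had 0.39 and 1.38 in input and 1.64 and 0.79 in footprints. GCLM, with 0.987, was the only other tested member with a ratio past 2-fold, so no other member could have been among the 7. Of the other tested members, the cosine was 0.929 for BLVRB, 0.859 for NQO1, 0.827 for ME1, 0.451 for GCLC and -0.888 for SRXN1. Those of ME1 and GCLC rest on ratios close to 0, some of which change sign with the scale. High cosines were common among the 148, which were chosen for a ratio past 2-fold: the gene at rank 40 still had 0.884. Over all 8117 tested protein-coding genes the median cosine, times 100, was -7.70.

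The wider pathway was described with 9 lists that hold 136 genes and none of the members. Of these genes 98 had a mean of at least 5 TPM. The highest and lowest gene of a list is meant by the mean of its 4 ratios. None of the 98 was at least 2-fold higher or lower in any of the 4 comparisons. Their highest ratios were 0.88 and 0.95 in input and 0.93 and 0.88 in footprints, and their medians were -0.12, -0.06, -0.05 and -0.06.

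Among the regulators, 14 of 15 genes were tested. NFE2L2, the gene of NRF2 itself, had input levels of 16.1, 12.1 and 9.83 TPM and footprint levels of 21.5, 24.8 and 24.4 TPM. It was thus below DMSO in both inhibitor inputs (ratios -0.22 and -0.29) and above it in both footprint libraries (0.34 and 0.18), and its translation efficiency was above DMSO with either input, at 0.56 and 0.46 with the same label and 0.62 and 0.39 with the other. BACH1 had input levels of 32.4, 41.7 and 34.95 TPM (ratios 0.51 and 0.47). Its footprint levels were 92.95, 93.4 and 96.1 TPM (0.15 and 0.05), so that its ratios were larger in input than in footprints. Most of the 0.47 comes from centring, as the median gene lay at -0.37 in the input labelled PRMT4 inhibitor. KEAP1 had input levels of 52.4, 44.7 and 50.4 TPM (ratios -0.07 and 0.31). Its footprint levels were 17.9, 19.3 and 19.7 TPM (0.24 and 0.14). Both inhibitor inputs were thus below DMSO in TPM, and the 0.31 is above 0 only with centring. SQSTM1, an autophagy receptor that binds KEAP1, was the highest of the list, at 0.33 and 0.79 in input and 0.66 and 0.39 in footprints, and DPP3, another KEAP1-binding protein, the lowest, at -0.34, -0.15, -0.59 and -0.28 in that order.

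Among 10 tested genes of NADPH supply, apart from ME1, 2 were above 0 in the mean over both labels in input and 1 in footprints. The medians of -0.28 and -0.30 lay at -0.54 and -0.37 without centring and at -0.22 and -0.21 after rescaling to protein-coding genes. The highest was the pentose phosphate enzyme PGLS (0.01 in input and 0.16 in footprints) and the lowest the folate enzyme MTHFD1 (-0.32 and -0.67). In the same order, input and then footprints, glutathione synthesis and use had medians of -0.18 and -0.07 over 16 tested genes, with SLC3A2 the highest (0.61 and 0.47) and the transferase GSTM2 the lowest (-0.50 and -0.26). In the thioredoxin and peroxiredoxin system the medians over 15 genes were -0.15 and 0.07, the latter at -0.01 without centring, with TXNRD2, the mitochondrial thioredoxin reductase, at 0.57 and 0.31 and PRDX3, the mitochondrial peroxiredoxin, at -0.47 and -0.39.

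Of 12 quinone and carbonyl detoxification genes, the highest was PIR, the iron-binding pirin (0.55 and 0.50), and the lowest CBR1, a carbonyl reductase (-0.47 and -0.56). Of 13 other genes of heme breakdown, synthesis and transport, the highest was the heme transporter SLC48A1 (0.42 and 0.38) and the lowest CPOX, an enzyme of heme synthesis (-0.40 and -0.54). HMOX2, the constitutive heme oxygenase, which was singled out after its values were seen, had ratios of -0.31 and -0.59 in input and -0.46 and -0.31 in footprints. Among 9 iron genes FTL, the ferritin light chain, was the highest at 0.81 and 0.86. FTL had a near-level profile like that of NQO1: 0.88 and 0.73 in input and 0.84 and 0.88 in footprints. The lowest of the 9 was ACO1 (-0.26 and -0.48), and their medians were -0.01 and 0.04. Of 6 genes of superoxide and peroxide removal, SOD1 was at 0.12 and 0.06 and CAT, catalase, at -0.27 and -0.42. The 3 tested metallothioneins, which answer to heavy metals, lay between -0.11 and 0.09 in input and between -0.18 and 0.22 in footprints.

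**Figure D5:**
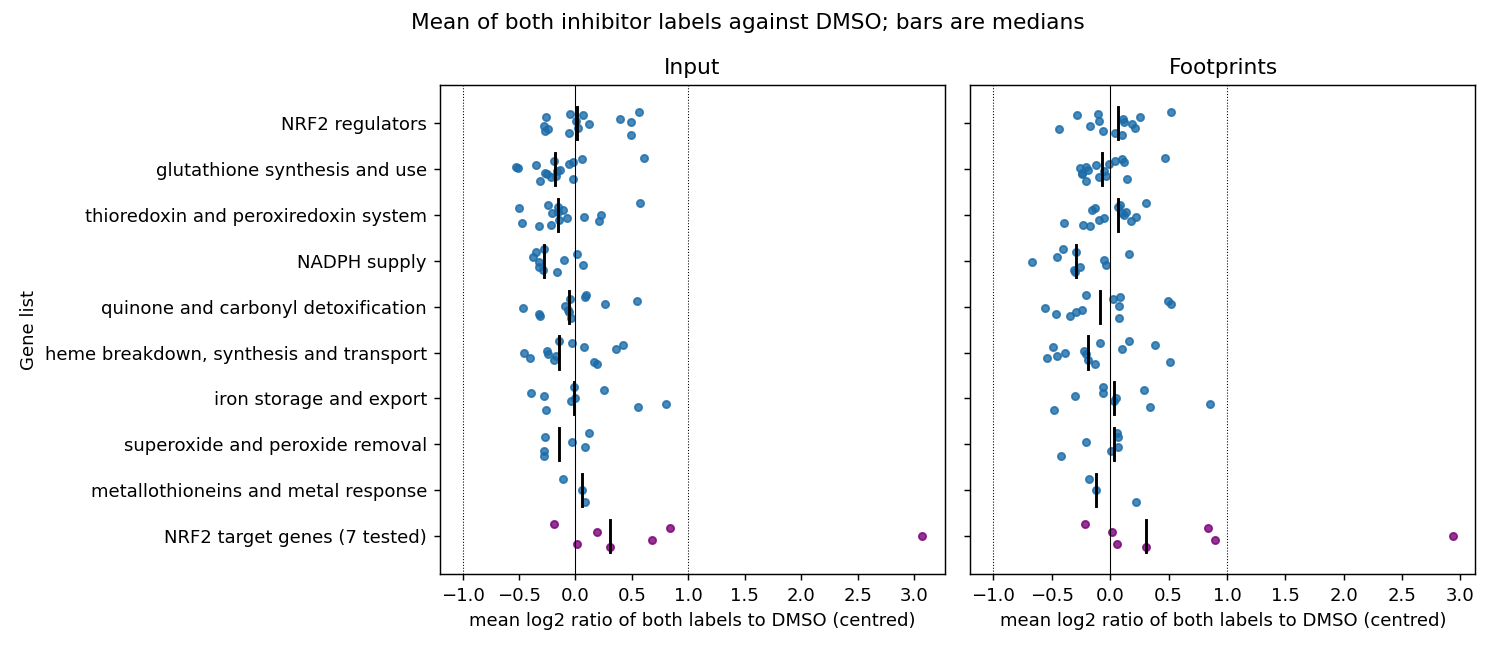
Points are genes of the 9 pathway lists and the 7 tested NRF2 targets, placed by the mean of both labels' centred log2 ratios to DMSO in input (left) and footprints (right), with bars at the medians and dotted lines at 2-fold. HMOX1 alone lies past 2-fold, at 3.07 and 2.93.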

How the data were processed

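Per the labels' protocols, lysates of HEK293T cells were digested with RNase I and monosomes were collected from sucrose gradients. The authors deposited TPM values to 2 decimals for each library. The build was GRCh37.p13, per the submitters' processing notes, which also list RSEM 1.2.22, STAR 2.4.2a, Bowtie 1.1.2 and cutadapt 1.18 without a role. The labels call the inputs ribosome-protected RNA too, and their preparation is not otherwise described. Sequencing depth cannot be read from TPM, so it is unknown here and values carry no counting interval. TPM is also a share, so abundant small RNAs lower all other genes.

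Of 60461 identifiers, 41 copies from the Y pseudoautosomal region, all at 0, were dropped. A symbol was matched to 55725 identifiers. Gene types and transcripts were taken from GENCODE 29, on a later build. Ratios with a pseudocount of 1 TPM were centred on the median of the 9040 genes whose mean over libraries reached 5 TPM, of which 8117 were protein-coding (Python 3.11.15, pandas 2.3.3, numpy 2.4.6). Those medians were -0.16 and -0.37 in input and -0.15 and -0.01 in footprints, for the PRMT1 and PRMT4 labels in that order. The code was tested on simulated data. Genes past 2-fold were counted, and with 1 library per group no test was made. Named from the lists were the genes with the highest and lowest mean of the 4 ratios, and 3 regulators. The 8 genes most like HMOX1 were also to be named, of which 1 is not reported here. The alternatives were other pseudocounts, other filters, no centring, rescaling to protein-coding genes, and the input of the other label. The members and lists were chosen with earlier results of these data known.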

Additional observations from a re-analysis of the deposited data

Results flagged for a closer look

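HMOX1 was picked out for its translation efficiency, which went in opposite directions under the 2 inhibitor labels. Its levels in input and in footprints were above DMSO under both. Its translation efficiency relative to DMSO was 2.82 (log2) for the PRMT1 label and -3.10 for the PRMT4 label. Likewise its difference between the PRMT1 and PRMT4 labels was -2.99 in input and 2.91 in footprints. With 1 library per group neither difference was tested. With the input of the other label the efficiencies were -0.20 and -0.09.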

How the results depend on the processing

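HMOX1 stood above 2-fold in all 4 comparisons with DMSO under the 7 scales and filters run, from 1.21 to 1.70 and from 3.97 to 4.75 in input and from 4.20 to 4.50 and from 1.38 to 1.56 in footprints. Counts of members past 2-fold were small, and 1 gene moved them. With a pseudocount of 0.1 TPM they became 2 in the input labelled PRMT1 inhibitor, 2 in translation efficiency for that label and 2 in footprints averaged over both labels, through NQO1, GCLM and GCLM. With a pseudocount of 5 TPM, GCLM was lost from the input labelled PRMT4 inhibitor (1) and from the footprints labelled PRMT1 inhibitor (1). Without centring or without a filter it was lost from the input labelled PRMT4 inhibitor (1 and 1). At a mean TPM of at least 1, and with no filter, SLC7A11 made it 2 and 2 in translation efficiency for the PRMT1 label and 2 and 2 in input between the labels. In the first of these settings it also took the place of GCLM (0.94) in the input labelled PRMT4 inhibitor and made 3 in the footprints labelled PRMT1 inhibitor. The count in translation efficiency within DMSO, 4 in both directions together, was 3 with a pseudocount of 5 TPM and after rescaling, and 5 at a mean TPM of at least 1 and with no filter. Rescaling to protein-coding genes gave 2 through NQO1 in PRMT1-labelled input and PRMT4-labelled footprints, and 2 through GCLM in translation efficiency for the PRMT1 label and in footprints averaged over both labels. With the input of the other label both translation efficiency counts were 0. For the PRMT1 label HMOX1 then lay at -0.20 and SLC7A11 at -0.0707, both of which had been past 2-fold above 0. Smaller values of BLVRB, GCLC, GCLM, SLC7A11 and OSGIN1 changed sign there too. Of all genes past 2-fold in the input labelled PRMT4 inhibitor, 81.0% were higher with centring, 27.1% without and 73.1% after rescaling. In the other libraries, in the order input and footprints labelled PRMT1 inhibitor and footprints labelled PRMT4 inhibitor, these were 75.7%, 85.0% and 71.6% with centring, 65.1%, 70.1% and 69.9% without, and 37.5%, 93.5% and 66.7% after rescaling. The rescaled shares cover 8107 protein-coding genes only, and some rest on few genes. In the input labelled PRMT1 inhibitor 3 were higher and 5 lower after rescaling, against 56 and 18 with centring. In the footprints labelled PRMT4 inhibitor 14 were higher and 7 lower, against 58 and 23. No paired analysis was possible because each group holds 1 library.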
